A study of Sus scrofa with 12 samples.

Results

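The genes of fatty acid uptake and oxidation studied here were CD36, LPL, SLC27A1, FABP3, CPT1B, CPT2, ACADVL, ACADM, HADHA and UCP3. They were chosen by function, with earlier results of these data known, and the rule itself used no measured value. A peak was given to a gene when its midpoint lay in the gene body or within 10 kb of it in the Sscrofa11.1 annotation. All 10 genes were found, and together they held 162 of the 217213 peak intervals of the table. After overlapping intervals called in both breeds were merged, the 10 genes held 95 of 140081 accessible regions.

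Chromatin accessibility was measured by ATAC-seq, in which a transposase inserts adapters into open DNA and the number of sequenced fragments rises with the openness of the chromatin. The samples were longissimus dorsi from 3 boars of the Duroc and 3 of the Luchuan breed. Duroc is a lean breed and Luchuan a fat Chinese breed. All boars were 180 days old, were kept and fed alike, and were fasted overnight before sampling. The table gave 1 read count per peak and breed, so the boars of a breed were not separate. The count was read as pooled over the boars, which the sources do not state. Thus n was 1 value per breed, called pooled here, and no test between animals was possible. A different number of nuclei with an open region and a different openness in each nucleus cannot be told apart in such tissue.

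Working muscle burns fatty acids as a main fuel, above all in its oxidative fibers. Lipoprotein lipase frees fatty acids from circulating lipoproteins at the capillary wall. CD36 and the transport protein encoded by SLC27A1 carry them across the plasma membrane, and FABP3 binds them in the cytosol. The carnitine palmitoyltransferases CPT1B and CPT2 bring long-chain fatty acids into the mitochondrion, CPT1B at the outer and CPT2 at the inner membrane. There ACADVL, ACADM and HADHA shorten them by beta-oxidation. UCP3 lies in the inner mitochondrial membrane of muscle and rises when fatty acids are the fuel, as in fasting.

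The 140081 regions held 20759894 Duroc and 13746020 Luchuan reads. Over regions called in both breeds, the log2 of Luchuan divided by Duroc reads had a median of -0.56, so Luchuan reads were multiplied by 1.48 to set the typical common region at 0. All log2 ratios here are on that scale, Luchuan over Duroc. They are therefore relative to the typical common region, and a shift shared by the whole genome cannot be seen in them. Without scaling all 10 genes lay below 0, from -0.67 for ACADVL to -0.26 for CPT2. Intervals are exact 95% Clopper-Pearson intervals and cover counting error only, since each breed had 1 pooled count. The reads carry no molecular identifiers, and several may come from the same molecule, which would make these intervals too narrow.

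No gene among the 10 differed 2-fold between the breeds when its regions were summed. The summed log2 ratios ran from -0.11 for ACADVL to 0.30 for CPT2, with a median of 0.03, and 5 genes lay above 0 and 5 below. Over all 16986 genes with a region the median was -0.0058 and the middle 50% ran from -0.15 to 0.15. Past 2-fold, with a counting interval on 1 side of 0, lay 0.871% of all genes toward Duroc (148 genes) and 2.35% toward Luchuan (400 genes). Of the 15822 genes with 100 or more reads, 119 lay past it toward Duroc and 92 toward Luchuan. The lean toward Luchuan over all genes was thus not seen among genes with 100 or more reads. By the interval alone 4 members (CPT2, CD36, ACADM and UCP3) were higher in Luchuan, where the share over all genes was 22.5%, and 1 member (ACADVL) was higher in Duroc, where it was 25.5%. The members held 1147 to 7081 reads each, with a median of 3716 against 1680 over all genes, and CPT2, with the fewest reads, lay below that median.

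In order from the lowest, the summed ratios ran ACADVL, HADHA, SLC27A1, FABP3, LPL, UCP3, CPT1B, ACADM, CD36 and CPT2. The intervals of every neighbouring pair in that order overlapped. The plot of summed ratios by gene shows CD36 and CPT2 beyond the middle 50% of all genes, ACADM at its upper edge, and the other members inside it. With 50 kb around the genes in place of 10 kb, CD36 fell to 0.12 and CPT2 to 0.15. With the gene body alone they lay at 0.27 and 0.36. The middle 50% of all genes was not recomputed for these windows, so their place relative to it there is not known.

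**Figure D1:**
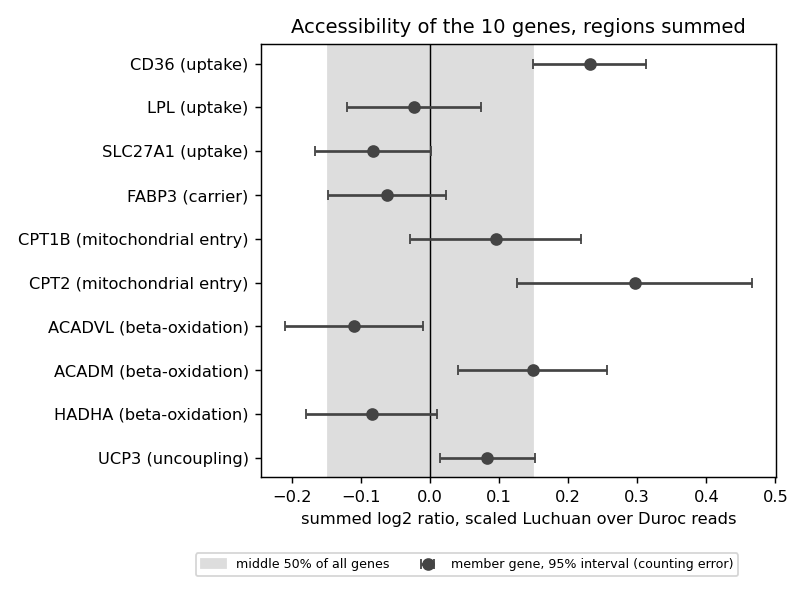
Summed log2 ratio of scaled Luchuan over Duroc reads (horizontal axis) for each of the 10 genes, with bars for the 95% counting interval of 1 pooled value per breed; the grey band is the middle 50% of all genes, from -0.15 to 0.15. CPT2 at 0.30 and CD36 at 0.23 lie beyond the band, ACADM at 0.15 lies at its edge, and without scaling all 10 genes would lie below 0.

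By role, the sums differed little. The 3 uptake genes together had a log2 ratio of 0.05 (95% interval, -0.00068 to 0.10), the carrier FABP3 -0.06, the 3 beta-oxidation genes -0.03 (-0.08 to 0.03) and UCP3 0.08. The 2 genes of mitochondrial entry stood highest at 0.17 (0.07 to 0.26), with 1894 Duroc and 1439 Luchuan reads. Of its 2 genes, only CPT2 had an interval on 1 side of 0. The uptake and beta-oxidation genes each held members on both sides of 0.

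Region by region, the median of the 10 genes lay near that of the genome, and a smaller share of regions was past 2-fold. The median log2 ratio of the 95 regions was 0.02, against -0.0090 over all regions, with 50 regions above 0 and 45 below. Only 1 region was past 2-fold toward Duroc, in HADHA, where 4.99% of all regions were. Likewise 1 was past 2-fold toward Luchuan, in CPT2, where 6.38% of all regions were. Genome-wide these shares differed by class. Of the 68776 regions called in both breeds, as the HADHA region was, 952 were past 2-fold toward Duroc. Of the 26773 called in Luchuan only, as the CPT2 region was, 8158 were past it toward Luchuan. By the counting interval alone 12 regions (12.6%) lay toward Luchuan, beside 13.4% of all regions, and 11 (11.6%) toward Duroc, beside 15.7%. These shares lie near or under those of all regions.

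Of the 95 regions, 52 (54.7%) were called as peaks in both breeds, 33 (34.7%) in Duroc only and 10 (10.5%) in Luchuan only. Over all regions the shares were 49.1%, 31.8% and 19.1%. The regions of the 10 genes were also better covered, with a median of 171 reads of both breeds together against 99. A call in 1 breed sets much of the direction: over all regions the median log2 ratio was -0.36 for those called in Duroc only and 0.77 for those called in Luchuan only. Among the 52 member regions called in both breeds the median was 0.04, against 0 over all such regions.

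**Figure D2:**
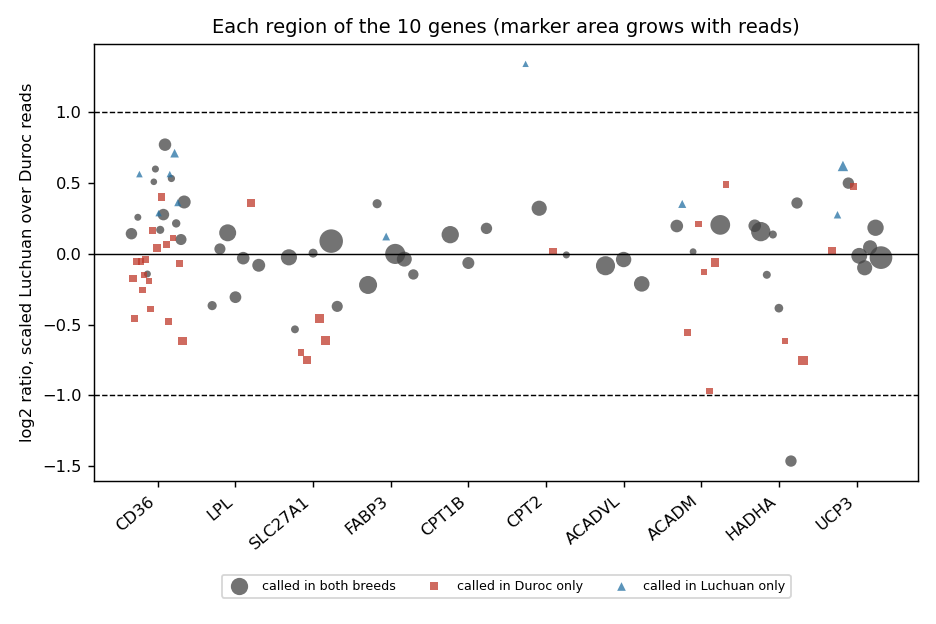
Log2 ratio of scaled Luchuan over Duroc reads (vertical axis) for each of the 95 regions, by gene and in genome order within a gene; shape and colour give the breed in which the peak was called, marker area grows with the reads, and dashed lines mark 2-fold. Only the HADHA region at -1.46 and the CPT2 region at 1.34 lie past the dashed lines, and the CPT2 marker is among the smallest.

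Pooled over the genes, accessibility per length was highest at the gene ends. Single genes differed: the densest region lay inside the gene in SLC27A1 and outside it in CPT1B, FABP3 and UCP3. ACADVL had no region within 1 kb of an end. The annotation gave no strand, so the start of a gene could not be told from its end. The 16 regions with a midpoint within 1 kb of either end held 702 Duroc and 732 scaled Luchuan reads per kb of region. The 53 regions inside the genes held 398 and 398 reads per kb, and the 26 regions outside held 603 and 616. The summed log2 ratio was 0.06 (0.0081 to 0.11) at the ends, 0.0019 (-0.05 to 0.06) inside and 0.03 (-0.02 to 0.08) outside. The breeds thus differed by less than 0.1 on the log2 scale in each of the 3 positions.

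CD36 is the scavenger receptor that takes up long-chain fatty acids at the cell surface, and it had the most regions of the 10 genes. The gene lies on chr9:99685748-99782296, and its 34 regions held 2707 Duroc and 2153 Luchuan reads. After scaling Luchuan was 1.17-fold higher, a log2 ratio of 0.23 (0.15 to 0.31), at the 86.7th percentile of 15822 genes with 100 or more reads. In this gene 21 regions lay above 0 and 13 below, and the counting interval lay above 0 for 4 regions and below 0 for 1. Over all regions 49.2% lay above 0, and the interval lay above 0 for 13.4% and below 0 for 15.7%.

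The difference at CD36 was not even along the gene. The widest gap lay inside the gene, 27.7 kb from its higher end, at chr9:99754256-99754960, with 264 Duroc and 305 Luchuan reads and a log2 ratio of 0.77 (0.53 to 1.01). Inside the gene as well, 8.75 kb from the same end, chr9:99773338-99773748 held 92 Duroc and 102 Luchuan reads, a log2 ratio of 0.71 (0.29 to 1.13), and its peak was called in Luchuan only. At both regions Luchuan had more reads even before scaling, although its total was lower.

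The CD36 region with most reads, chr9:99786887-99787824, lies outside the gene, 5.06 kb from the higher end. It held 336 Duroc and 293 Luchuan reads, a log2 ratio of 0.36 (0.13 to 0.59). The region nearest an end of the gene, chr9:99781959-99782385 at the higher end, held 240 Duroc and 174 Luchuan reads and showed no such gap, at 0.10 (-0.19 to 0.38). Just beyond it, chr9:99783554-99783799 went the other way, with 119 Duroc and 52 Luchuan reads, a log2 ratio of -0.62 (-1.13 to -0.15) and a peak in Duroc only. The 12 CD36 regions called in both breeds summed to 0.34 (0.24 to 0.44), the 17 called in Duroc only to -0.17 and the 5 called in Luchuan only to 0.56.

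LPL encodes lipoprotein lipase, which muscle makes and sends to the capillary wall. On chr14:4104761-4134964 its 7 regions held 2165 Duroc and 1444 Luchuan reads, a log2 ratio of -0.02 (-0.12 to 0.07), at the 48.3rd percentile. The region nearest an end, chr14:4104741-4105195 at the lower end, held 247 Duroc and 171 Luchuan reads and lay at 0.03 (-0.26 to 0.32). The region with most reads, chr14:4105270-4106244, lies inside the gene 0.996 kb from its lower end, with 672 Duroc and 504 Luchuan reads and a log2 ratio of 0.15 (-0.02 to 0.32). A region in the middle of the gene, chr14:4115916-4116495, had 313 Duroc and 171 Luchuan reads, and at -0.31 (-0.59 to -0.04) it was the only LPL region with an interval on 1 side of 0.

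SLC27A1 encodes a fatty acid transport protein of the plasma membrane that also activates fatty acids. Its 9 regions on chr2:60203374-60235689 and its flanks held 2945 Duroc and 1885 Luchuan reads, a log2 ratio of -0.08 (-0.17 to 0.0015). The strongest region, chr2:60233607-60234807, lies 1.48 kb inside the higher end. With 1391 Duroc and 1002 Luchuan reads it exceeded 99.96% of all regions in reads per kb, and the breeds hardly differed there, at 0.09 (-0.03 to 0.21).

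Several other SLC27A1 regions lay toward Duroc. In 5 of the 9 regions the interval was below 0, with log2 ratios from -0.75 to -0.37, and in none was it above 0. The region nearest an end, chr2:60204076-60204328 at the lower end, was among them, with 93 Duroc and 43 Luchuan reads and a log2 ratio of -0.53 (-1.11 to -0.02). Of these 5 regions 4 lay inside the gene and the other lay in the body of the neighbouring gene NXNL1. The lowest, chr2:60213929-60214320, rested on only 76 Duroc and 30 Luchuan reads. It was called in Duroc only, as were chr2:60229272-60229492 and chr2:60229516-60229744 among the 5. Over all regions 15.7% had an interval below 0, and 24.6% of those called in Duroc only. Over regions called in both breeds SLC27A1 summed to -0.0094.

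FABP3 encodes the heart and muscle fatty acid binding protein, the carrier of fatty acids in the cytosol of muscle. Its 6 regions on chr6:87943003-87950708 and its flanks held 2819 Duroc and 1830 Luchuan reads, a log2 ratio of -0.06 (-0.15 to 0.02). The strongest, chr6:87950427-87951731, spans the higher end and overlaps a long non-coding RNA gene. It held 1023 Duroc and 692 Luchuan reads, so that after scaling the breeds were level at -0.0020 (-0.14 to 0.14). By midpoint the region nearest an end was chr6:87950270-87950423, at 0.362 kb against 0.371 kb for the strongest. It lies inside the gene without reaching the higher end and was called in Luchuan only. It held 75 Duroc and 55 Luchuan reads, a log2 ratio of 0.12 (-0.42 to 0.64). At the lower end, chr6:87941598-87942800 in the body of ZCCHC17 held 852 Duroc and 495 Luchuan reads, a log2 ratio of -0.22 (-0.38 to -0.06). The 2 FABP3 regions with midpoints inside the gene summed to 0.27, and the log2 ratio without regions in other genes was 0.0025, so the direction of the FABP3 sum rested on the flanks.

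CPT1B encodes the muscle form of carnitine palmitoyltransferase 1, the step at which long-chain fatty acid oxidation is controlled. Its 3 regions on chr5:155552-163536 and its flanks were all called in both breeds. They held 1268 Duroc and 918 Luchuan reads, a log2 ratio of 0.10 (-0.03 to 0.22). The region at the lower end, chr5:155388-155854, held 311 Duroc and 201 Luchuan reads, a log2 ratio of -0.07 (-0.33 to 0.19). The strongest, chr5:151424-152250, lies in the body of CHKB, with 705 Duroc and 524 Luchuan reads and a log2 ratio of 0.13 (-0.03 to 0.30). No CPT1B region had an interval on 1 side of 0.

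CPT2 encodes the inner membrane enzyme that turns acylcarnitines back into acyl-CoA. It had the highest summed log2 ratio of the 10 genes, 0.30 (0.13 to 0.47), at the 91.6th percentile, and also the fewest reads, 626 in Duroc and 521 in Luchuan. Most of them came from a single region at the higher end of the gene (chr6:159038129-159061327). This region, chr6:159060639-159061275, held 493 Duroc and 417 Luchuan reads, or 774 and 966 scaled reads per kb, a log2 ratio of 0.32 (0.13 to 0.51).

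The only member region past 2-fold toward Luchuan was also in CPT2, inside the gene at chr6:159040659-159040808. It was the shortest length a peak had, 150 bp, was called in Luchuan only, and held 13 Duroc and 23 Luchuan reads, a log2 ratio of 1.34 (0.34 to 2.49). Of 22144 regions with 29 to 45 reads, 6.25% were as high. The region nearest an end, chr6:159061312-159061497 at the higher end, held 72 Duroc and 49 Luchuan reads, a log2 ratio of 0.02 (-0.55 to 0.55), and the remaining region lay at -0.0090.

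ACADVL encodes the very long-chain acyl-CoA dehydrogenase, which starts beta-oxidation of the longest chains. It was the lowest of the 10 genes, with 2107 Duroc and 1323 Luchuan reads in 3 regions and a log2 ratio of -0.11 (-0.21 to -0.010), at the 31.3rd percentile. Just 1 region lies within the gene (chr12:52573521-52581755), at chr12:52576204-52576964, with 567 Duroc and 373 Luchuan reads and a log2 ratio of -0.04 (-0.24 to 0.15). The strongest region, chr12:52570586-52571675 in DLG4, held 932 Duroc and 595 Luchuan reads and lay at -0.09 (-0.24 to 0.06). The region in DVL2, with 608 Duroc and 355 Luchuan reads and a log2 ratio of -0.21 (-0.41 to -0.02), was the only ACADVL region with an interval on 1 side of 0.

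ACADM encodes the medium-chain acyl-CoA dehydrogenase. Its 10 regions on chr6:137541481-137575544 and its flanks held 1628 Duroc and 1223 Luchuan reads, a log2 ratio of 0.15 (0.04 to 0.26), at the 78.2nd percentile. The strongest, chr6:137575189-137576114, spans the higher end and was denser than 99.76% of all regions. It held 922 Duroc and 719 Luchuan reads, a log2 ratio of 0.20 (0.06 to 0.34), and was the only ACADM region with an interval on 1 side of 0. Its midpoint fell outside the gene body, and the 6 regions with midpoints inside summed to -0.21. The lowest of these, at -0.97 (-2.44 to 0.11), had 25 Duroc and 8 Luchuan reads. All of these 6 except chr6:137546433-137546612 were called in Duroc only, a call that sets much of the direction. Over regions called in both breeds ACADM summed to 0.195.

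HADHA encodes the alpha subunit of the mitochondrial trifunctional protein, which carries out the later steps of long-chain beta-oxidation together with the beta subunit from HADHB. Its 9 regions on chr3:112753343-112797627 and its flanks held 2332 Duroc and 1490 Luchuan reads, a log2 ratio of -0.08 (-0.18 to 0.0095). With the gene body alone it was -0.37. The sum hid the widest spread of the 10 genes, from -1.46 to 0.36 between regions.

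The lowest HADHA region was the only member region past 2-fold toward Duroc. It lies inside the gene at chr3:112786781-112787394, 10.5 kb from the higher end, and was called as a peak in both breeds. It held 357 Duroc and 87 Luchuan reads, or 581 and 209 scaled reads per kb, a log2 ratio of -1.46 (-1.83 to -1.13). Of 9540 regions with 356 to 555 reads, 1.34% were as low. Without this region the gene summed to 0.07 (-0.03 to 0.17), so the sign of the HADHA sum rested on it.

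Both ends of HADHA lay slightly toward Luchuan. The HADHA gene and its neighbour HADHB lie end to end, and chr3:112752530-112753857 covers the gap between them, with 896 Duroc and 676 Luchuan reads and a log2 ratio of 0.16 (0.0086 to 0.30). At the higher end, chr3:112797022-112797627 held 234 Duroc and 203 Luchuan reads, a log2 ratio of 0.36 (0.08 to 0.63). Farther out in the body of GAREM2, chr3:112803627-112804035 was called in Duroc only, with 173 Duroc and 69 Luchuan reads and a log2 ratio of -0.75 (-1.19 to -0.35). The profile of HADHA shows the bar inside the gene that is tall in Duroc and short in Luchuan.

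**Figure D3:**
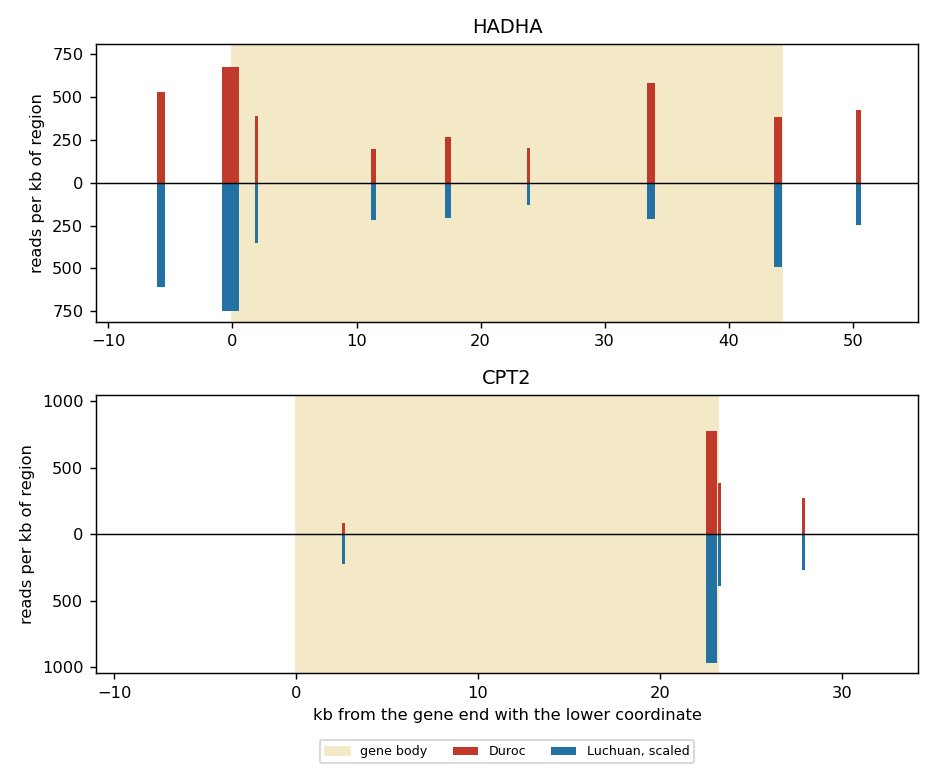
Reads per kb of each region along HADHA and CPT2, with Duroc above and scaled Luchuan below the line; the horizontal axis is the distance in kb from the gene end with the lower coordinate, shading marks the gene body, and the narrowest bars are widened to be visible. In HADHA the region 33.7 kb along has 581 Duroc and 209 scaled Luchuan reads per kb, and in CPT2 most reads lie at the higher end.

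UCP3 had the most reads of the 10 genes, 4122 in Duroc and 2959 in Luchuan over 10 regions, and a log2 ratio of 0.08 (0.01 to 0.15). The gene lies on chr9:8378023-8389452. Its regions fell into a weaker and a stronger set on either side of the gene. This split was not among the planned results. Beyond the lower end 5 regions held 572 Duroc and 536 Luchuan reads, a log2 ratio of 0.47 (0.29 to 0.64), and all 5 lay above 0. They included the 2 UCP3 regions called in Luchuan only and the 2 called in Duroc only. Over all regions 92.1% and 22.2% of these classes lay above 0. From the gene body to the higher side 5 regions held 3550 and 2423 reads, a log2 ratio of 0.01 (-0.06 to 0.09). Among them chr9:8391970-8392720 lay at 0.18 (0.0053 to 0.36).

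The UCP3 regions with the widest gaps were chr9:8375107-8375547, with 172 Duroc and 179 Luchuan reads and a log2 ratio of 0.62 (0.31 to 0.93), and chr9:8375709-8376219, with 230 and 220 reads and a log2 ratio of 0.50 (0.22 to 0.77). The first was called in Luchuan only and the second in both breeds. Both overlap LOC110255396, annotated as a long non-coding RNA gene. At the higher end of UCP3, chr9:8389137-8389806 held 554 Duroc and 350 Luchuan reads and a log2 ratio of -0.10 (-0.30 to 0.09). The UCP3 region with most reads, chr9:8397514-8398997 in C2CD3, held 1332 Duroc and 885 Luchuan reads, at -0.03 (-0.15 to 0.10). With the gene body and 2 kb around it in place of 10 kb, UCP3 summed to -0.03, so its place above 0 came from the farther regions.

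**Figure D4:**
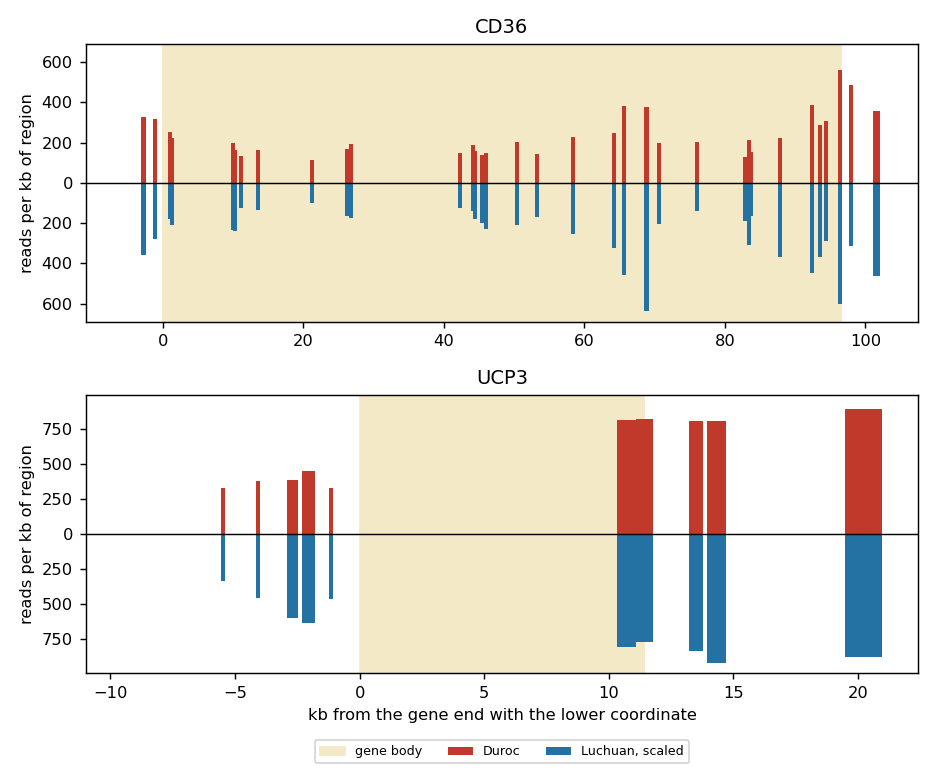
Reads per kb of each region along CD36 and UCP3, drawn as for HADHA and CPT2 with Duroc above and scaled Luchuan below the line. In CD36 the tallest Luchuan bar lies inside the gene (log2 ratio 0.77), and in UCP3 the bars beyond the lower end are taller in Luchuan (0.47 summed) while those on the other side sum to 0.01.

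Another 48 genes of fatty acid handling were listed by function, and 44 had at least 1 region. FABP4 and GPIHBP1 had none within 10 kb, and ACOT1 and ACOT2 were not matched by symbol. As with the 10 genes, none of the 44 was past 2-fold. By the counting interval 15 (34.1%) lay toward Luchuan and 11 (25%) toward Duroc, beside the 22.5% and 25.5% of all genes, and their median was -0.0071.

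The highest of the 44 was PDK4, the kinase that shuts off pyruvate dehydrogenase and so spares glucose when fatty acids are burnt, with 1814 Duroc and 2143 Luchuan reads and a log2 ratio of 0.80 (0.71 to 0.89). It was followed by ACSL5, an acyl-CoA synthetase that activates fatty acids, with 277 Duroc and 305 Luchuan reads and a log2 ratio of 0.70 (0.46 to 0.94). The next was CAV1, the caveolar coat protein, with 475 and 483 reads and a log2 ratio of 0.59 (0.40 to 0.77). All 3 had more Luchuan reads even before scaling.

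The lowest were CPT1A, the liver form of carnitine palmitoyltransferase 1, UCP2, an uncoupling protein found in many tissues, and CPT1C, the form of the brain. CPT1A held 488 Duroc and 205 Luchuan reads, a log2 ratio of -0.69 (-0.93 to -0.45). UCP2 held 1102 and 535 reads, at -0.48 (-0.63 to -0.33), and CPT1C 591 and 298 reads, at -0.42 (-0.63 to -0.22). Each of these is a relative of a member: CPT1B, the form of muscle, lay at 0.10 and UCP3 at 0.08. UCP2 and UCP3 are neighbours on chromosome 9 and their windows share 2 regions. HADHB, the partner of HADHA, whose window shares 3 regions with it, lay at 0.11 (0.0038 to 0.21).

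**Figure D5:**
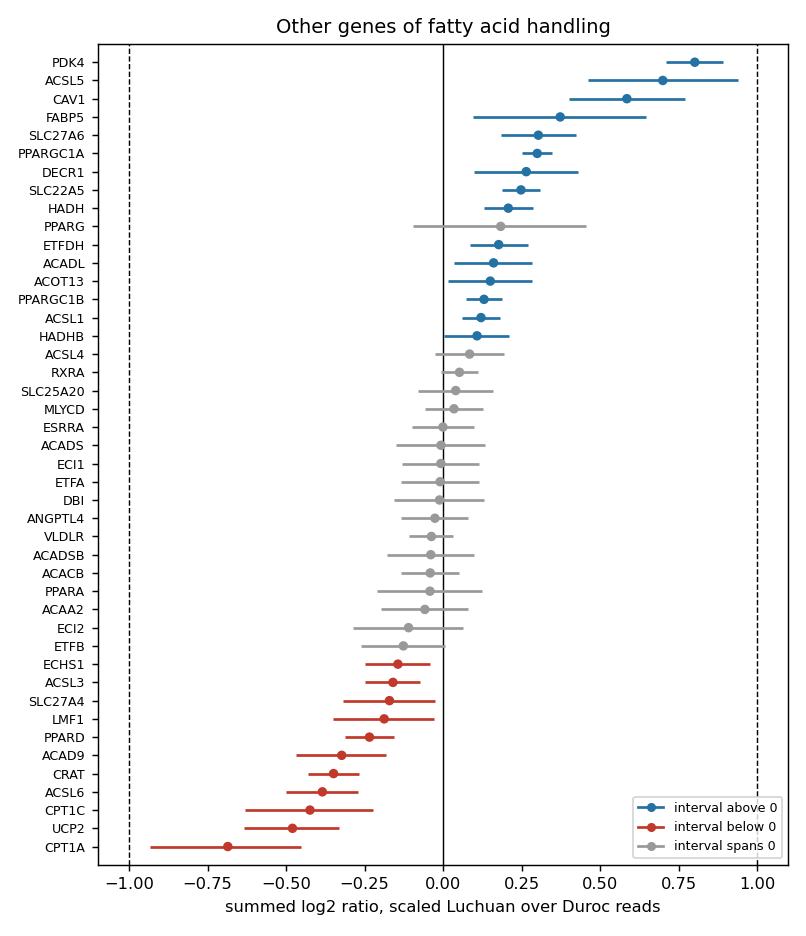
Summed log2 ratio of scaled Luchuan over Duroc reads (horizontal axis) for the 44 other genes of fatty acid handling, with lines for the 95% counting interval of 1 pooled value per breed, coloured by the side of 0 on which the interval lies; dashed lines mark 2-fold. All points lie between -0.69 (CPT1A) and 0.80 (PDK4), inside the dashed lines.

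Marker genes were read in the same way to see what tissue the reads came from. All 14 skeletal muscle markers had regions, with a median of 171 Duroc and 138 scaled Luchuan reads per kb of gene and flanks, against 44.2 and 45.4 for the 10 fatty acid genes, 6.39 and 4.61 for 6 of 7 adipocyte markers and 2.04 and 1.89 for 7 endothelial markers. The 4 liver markers, for a tissue not sampled, had medians of 3.77 and 7.09, so the levels of the adipocyte and endothelial markers were not clearly above that background. FABP4 and the fibroblast marker LUM had no region. The muscle markers lay toward Duroc, 12 of 14 by the counting interval and 1 toward Luchuan (range -0.62 to 0.03, median -0.31). So did all 8 fast fiber markers (-0.72 to -0.16), of which 4 (MYH1, MYH4, TNNT3 and TNNI2) are also among the 14, and 6 of 8 slow fiber markers (-1.08 to 0.11), of which the regulatory light chain gene MYL2, at -1.08, was past 2-fold.

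The adipocyte, endothelial, immune and fibroblast markers were not shifted together. The adipocyte markers ranged from -0.93 to 0.34, with 1 higher in Luchuan and 2 in Duroc, and the endothelial markers from -0.71 to 0.79, with 2 higher in each breed. The 5 immune markers ranged from -1.06 to 1.21, with 2 higher in each breed. The 3 fibroblast markers with regions ranged from -0.10 to 0.39, with 0 higher in either breed by the interval. The liver markers ranged from -0.07 to 1.21, with a median of 0.84, 2 higher in Luchuan and 0 in Duroc. The 10 fatty acid genes, with a median of 0.03, thus lay above most muscle markers, but the part of cell and fiber makeup in their ratios was not tested.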

How the data were processed

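ATAC-seq libraries came from the longissimus dorsi of 3 boars per breed, Duroc and Luchuan. The authors used Trimmomatic for trimming, Bowtie2 for alignment to Sscrofa11.1 and MACS2 for calling peaks. Removal of duplicates, the transposase shift, pooling and the counting tool are not given in the sources used here. The authors deposited raw read counts, 1 per peak interval and breed, which were read as pooled over the boars. Their rescaled log2 fold change, average log2 signal and p-value were not used. The RNA-seq samples were not analysed here.

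Overlapping or adjoining intervals called in both breeds were merged and represented by the longest, and starts were given from 1. Luchuan counts were multiplied by 1.48, the pseudocount was 1, and a difference was called at 2-fold or more with a 95% Clopper-Pearson interval on 1 side of 0. With 1 value per breed no model with replicates could be fitted. Genes came from the RefSeq table of Sscrofa11.1 (19550 protein-coding genes, no strand, exons or start sites), an assembly of a Duroc animal. The planned search for promoter motifs was not run, since it needs the sequence. The calls were tested only on simulated counts with counting error, which does not cover spread between boars or repeated reads.

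For each member the region nearest an end and the one with most reads were to be named, with every region past the limit; of the other 48 genes, the 3 highest and 3 lowest. Further regions were named after their values were seen. Members and lists were chosen with earlier results of these data known. Alternatives covered scaling, window, merging, low counts, pseudocount, fold limit and regions in other genes. Ratios and intervals were computed in Python 3.11.15 with SciPy 1.17.1, NumPy 2.4.6 and pandas 2.3.3, and plots were drawn with Matplotlib 3.10.9.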

Additional observations from a re-analysis of the deposited data

How the results depend on the processing

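Scaling mattered most. Without it the median over the 95 regions was -0.55, CD36 (-0.33), CPT2 (-0.26), ACADM (-0.41), UCP3 (-0.48) and CPT1B (-0.47) changed sign, 13 regions were past 2-fold toward Duroc and 0 toward Luchuan, and 2 other pathway genes were past it toward Duroc. Scaling by summed reads moved the median to 0.049, and among the genes only LPL, at 0.011, changed sign; a line on the signal put LPL at 0.0071. With the gene body alone ACADM (-0.21) and UCP3 (-0.015) changed sign, HADHA moved to -0.37, and 1 other pathway gene was past the limit toward Duroc and 2 toward Luchuan. With 2 kb around the body UCP3 lay at -0.030. With 50 kb CD36 moved to 0.12, CPT2 to 0.15, SLC27A1 to -0.17, FABP3 to -0.19 and UCP3 to 0.0027, and the median was -0.014. In that window 7 regions were past the limit toward Duroc and 6 toward Luchuan. The number of regions in it was not kept, so these counts give no share to set beside the 4.99% and 6.38% of all regions. Counting every row of the table gave 2 regions toward Duroc. A 1.5-fold limit gave 5 regions toward Duroc and 4 toward Luchuan, and 1 and 3 other pathway genes. With no fold limit these were 11 and 12 regions, 1 and 4 of the 10 genes, and 11 and 15 other pathway genes. Shares over all regions and genes were not computed without scaling or at the 1.5-fold limit, nor shares over all genes with other windows. LPL and FABP3, with intervals spanning 0, also changed sign, LPL with each other window and FABP3 with the gene body alone and without regions in other genes. Chosen after seeing the data, HADHA without its region past 2-fold gave 0.07, and CD36 over regions called in both breeds gave 0.34. The sums kept their sign in every other case computed. No paired analysis was possible because the count columns carry no replicate number. Depth limits the regions with few reads, and the spread between boars is unknown for every value.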
